A study of Mus musculus with 9 samples.

Results

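The genes described are the receptors of interleukin-7 (IL-7), interleukin-15 (IL-15) and the other cytokines that signal through the common gamma chain, with the kinases bound to them. They are 9 genes listed by symbol (Il7r, Il2rb, Il2rg, Il2ra, Il15ra, Il4ra, Il21r, Jak1 and Jak3), and all 9 were found by their Ensembl identifiers among the 14004 genes of the deposited table. The assay was RNA-seq of iNKT1 cells, the T-bet-expressing subset of invariant natural killer T cells, whose nearly uniform T cell receptor recognises lipids on CD1d. There were 9 libraries of untreated C57BL/6 mice, 3 from thymus, 3 from liver and 3 from spleen. Cells of all 3 tissues had the genotype Tbx21CreTg;Rosa26-LSL-YFP+/+, so that every group carried a Cre transgene named for Tbx21, the gene of T-bet, and a Cre-dependent YFP reporter at the Rosa26 locus. The labels used here give no age, do not say how the cells were sorted and do not say whether the replicates of a tissue came from separate mice. The p-values therefore measure only the spread between these libraries. The library numbered 2 of each tissue differed from the others in Y-linked reads. In liver and spleen the spread between replicates 1 and 3 may be technical, while in thymus these replicates differed in Xist, at 1.14 and 16531.

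The common gamma chain, encoded by Il2rg, pairs with a cytokine-specific chain: with the product of Il7r for IL-7, of Il4ra for IL-4 and of Il21r for IL-21, and with the beta chain encoded by Il2rb for both IL-2 and IL-15. The alpha chains encoded by Il2ra and Il15ra add affinity for IL-2 and for IL-15, and the IL-15 alpha chain can also present IL-15 to a neighbouring cell. JAK3 binds the common gamma chain and JAK1 the cytokine-specific chains, and both phosphorylate STAT factors, with STAT5 the main one downstream of IL-2, IL-7 and IL-15. IL-15 is known for its role in the survival and maturation of iNKT1 cells, and IL-7 for its role in the survival of developing and naive T cells.

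Il7r is the gene on which the results turn, and the stretch just upstream of its RefSeq start is shown. It holds the only match to the STAT motif among the upstream windows of the members. The stretch is 99 bases of the minus strand of mm10 (GRCm38.p6), chr15:9529942-9530040, and its capitals mark the match to TTCNNNGAA, the core that STAT5 recognises. It lies inside the Il7r gene as annotated by GENCODE but outside every exon of it.
Il7r: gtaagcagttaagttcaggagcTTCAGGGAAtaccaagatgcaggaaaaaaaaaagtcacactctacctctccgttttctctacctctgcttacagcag
RefSeq gave 9 windows of 250 bases before a start for 8 of the 9 members. Of these windows 1 held the motif on either strand, beside 7.02% of all 32851 such windows. Some windows, those of Il7r and Il4ra among them, reach past an annotated start of the gene. The letters are a description and do not show that a STAT factor binds there. Il2rb had no entry.

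Values are the authors' normalised read counts, given per library in the order replicate 1, 2 and 3 and as mean ± SD over 3 libraries. Differences were tested with limma-trend on log2(value + 1) over 13309 genes, and fold changes are on that scale unless stated. The libraries held 3877694 to 39568081 reads as recovered from the deposited values, with the lowest in liver replicate 3, where 72.9% of low values lay within 0.1 of a whole read against 98.2% or more elsewhere. Thymus replicates 1 and 2 had reads from 10476 and 11180 genes, fewer than the 11781 to 13038 of the other libraries. The Y-linked genes, 4 in the table, had 21 reads or fewer in the library numbered 2 of each tissue and 1458 or more in the other 6. Xist was at least 84543 in the former, and thymus replicate 3 combined 7016 Y-linked reads with Xist at 16531. All 15 markers fixed for iNKT1 cells were in the table, with sums of 117594 to 169749 in thymus, 122176 to 130387 in liver and 95736 to 98275 in spleen. Of these, Klrd1 and Klrk1, which encode NK cell receptors, fell from thymus to liver, with log2 changes of -2.34 and -1.71 (adjusted p = 0.00355 and 0.0267, limma-trend). Klrd1 also fell from thymus to spleen, with a log2 change of -2.61 (adjusted p = 0.000783, limma-trend). The 7 markers of the related iNKT2 subset summed to 10410 to 18012, 10924 to 13305 and 17316 to 19374 in thymus, liver and spleen. Of 10 iNKT17 markers 7 were in the table and summed to 7.14 to 2001, 1029 to 8021 and 449 to 1007. Tmem176a and Tmem176b carried most of the iNKT17 sums in liver. No gene of these 2 lists was called, and the part of these subsets in the differences was not tested. Of 12 B cell genes 10 were in the table and summed to 3507 to 5681, 6173 to 8832 and 5709 to 17020 in thymus, liver and spleen, with Cd79a, Cd79b, Ms4a1 and Blnk at no more than 3 reads in every thymus library. Of 8 hepatocyte genes 6 were in the table and summed to at most 270 in thymus, 1376 to 1729 in liver and at most 14.1 in spleen. Of 12 myeloid genes 6 were in the table and summed to at most 315, 1298 and 3575 in thymus, liver and spleen.

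Il7r, the IL-7 receptor alpha chain, had the smallest p-values of the 9 genes in every comparison. Its normalised read counts were 39747.5, 50118 and 27831 in thymus, 15547, 17003.5 and 8546 in spleen, and 4131, 4674 and 2109 in liver. Every thymus library lay above every spleen library, and every spleen library above every liver library. Of all 13309 genes tested, 1.07% had tissues that did not overlap in any pair. The mean was 39232 ± 11152 in thymus, 13699 ± 4522 in spleen and 3638 ± 1352 in liver (SD, n = 3 each), which made the liver mean 10.8-fold lower than that of thymus.

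Il7r was the only member that passed the threshold in the comparison of liver with thymus. It fell by 3.47 on the log2 scale (SE 0.34, adjusted p = 0.00020, limma-trend, higher in 3 of 3 thymus libraries), beside 0.323% of all genes called in that comparison and 0.12% called as lower in liver. Its unadjusted p had rank 2 of 13309. The same call was made in all 23 alternative analyses, with fold changes from -3.70 to -3.12 and adjusted p-values of at most 0.0050. Without thymus replicate 3 the change was -3.70, without liver replicate 3 it was -3.12, and in the libraries numbered 1 and 3 alone it was -3.49. In bulk RNA, fewer cells that express a gene and less of its RNA per cell cannot be told apart.

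The spleen stood between the other tissues for Il7r, and neither of its steps passed the threshold in the main analysis. From thymus to spleen the fitted change was -1.54 (SE 0.34, adjusted p = 0.0652, limma-trend), with a spleen mean 2.86-fold lower. From spleen to liver it was -1.93 (SE 0.34, adjusted p = 0.127, limma-trend), with a liver mean 3.77-fold lower. No member passed in either of these comparisons, beside 0.398% of all genes in spleen against thymus and 0.015% in liver against spleen. At an unadjusted p under 0.05 the counts were 3 and 2 of 9 members, beside 11.7% and 3.03% of all genes. The thymus-to-spleen step passed in 6 of 23 alternatives, over a range of 0.0044 to 0.354. Among the 9 fits without 1 library it passed in 2, without thymus replicate 3 (adjusted p = 0.0475, limma-trend) and without liver replicate 3 (adjusted p = 0.0456, limma-trend). The spleen-to-liver step passed in 4 of 23, among them DESeq2 on recovered reads with an adjusted p of 0.0013, over a range of 0.0013 to 1.0. It passed in 0 of the 9 fits without 1 library, where the lowest adjusted p was 0.0629 (limma-trend). DESeq2 also called the thymus-to-spleen step, with an adjusted p of 0.0050. With a term for the libraries numbered 2, which stand apart in Y-linked reads, both steps passed (adjusted p = 0.0283 from thymus to spleen and 0.0308 from spleen to liver, limma-trend). Both also passed with a replicate block, which has a term per replicate number. An F-test over the 3 tissues from the limma-trend fit gave Il7r an adjusted p of 0.000304, and no other member passed it, beside 0.346% of all genes. At an unadjusted p under 0.05 this test counted 4 of 9 members, beside 9.95% of all genes. The comparisons with thymus share its 3 libraries and are not independent of each other.

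**Figure D1:**
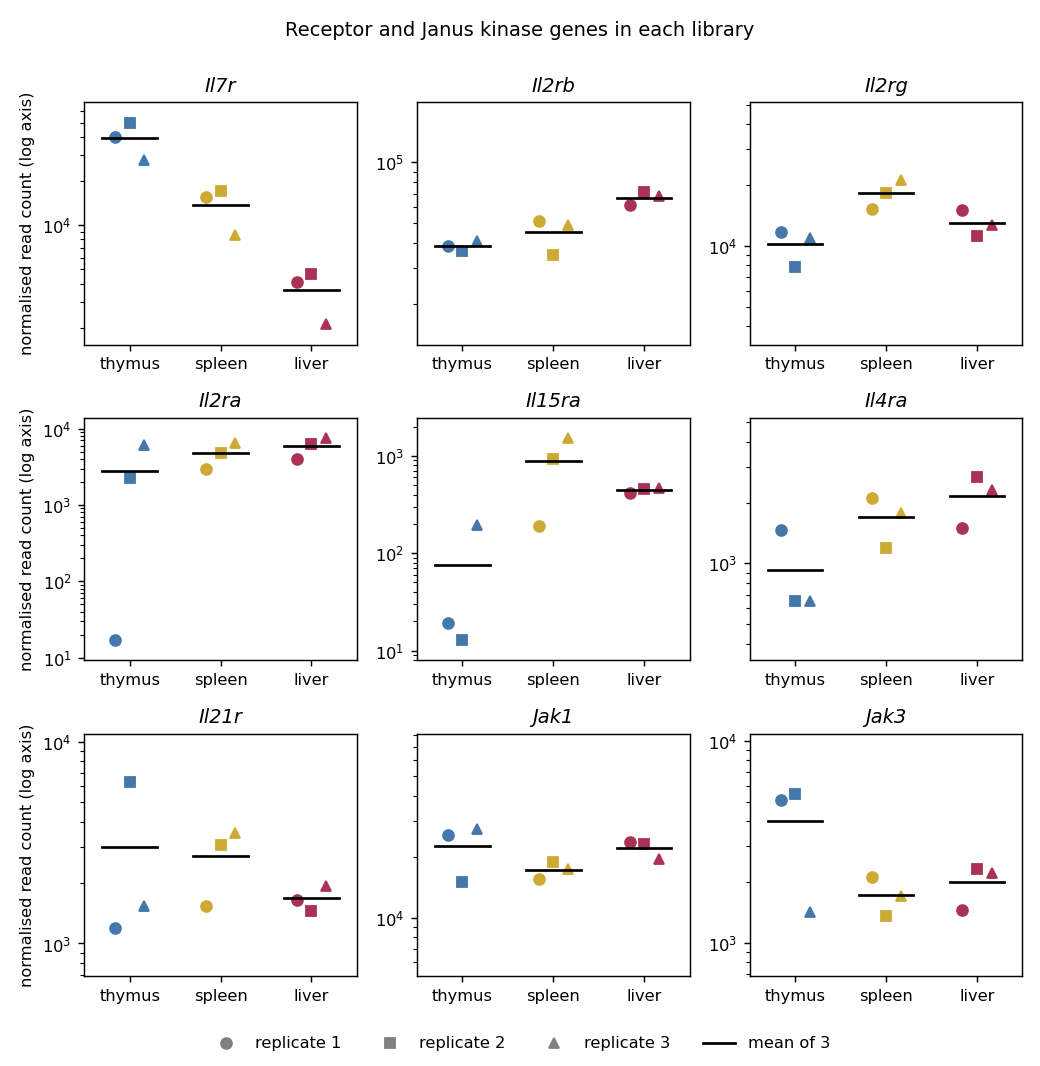
Normalised read count of each of the 9 genes (vertical log axis) by tissue, with 1 point per library, the marker shape giving the replicate number and the bar the mean of 3. The 3 tissues of Il7r are separate from each other, from at least 27831 in thymus to at most 4674 in liver. The thymus points of Il2ra and Il15ra are spread more widely than their liver points, and those of Il15ra all lie below liver.

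Genes listed as markers of other cells moved in part with Il7r. Of 9 genes of NK cells and ILC1, 8 were in the table and summed to 11701 to 17057 in thymus, 2697 to 8923 in liver and 1164 to 3633 in spleen, so that thymus was highest as for Il7r but spleen, not liver, was lowest. Gzma, Fcer1g and Klre1 were the highest of these genes in thymus, with means of 4770, 4759 and 3293. Of the 8 genes 2, Ncr1 and Tyrobp, went the other way, with positive fitted changes against thymus in liver and in spleen. Ncr1, which encodes the NK cell receptor NKp46, had no more than 3 reads in every thymus library. Its values were 616, 13.7 and 131 in liver and 0.697, 1.31 and 35.9 in spleen. Tyrobp had means of 84.4, 249 and 468 in thymus, liver and spleen. Of 9 genes of immature thymocytes 7 were in the table, and their sums were lowest in thymus, at 2387 to 8442 beside 10293 to 14835 in liver and 10107 to 14434 in spleen. Cd4 and Themis, which mature T cells also express, carried most of these sums. Rag1, Dntt and Arpp21, which mark early thymocytes, went the other way, with Rag1 at 486 in thymus replicate 3 and at most 0.815 in every liver and spleen library, Arpp21 at 153 against at most 2.68, and Dntt at 11.3 against at most 0.63. In thymus replicates 1 and 2 Rag1 and Dntt were near 0, and Il7r was higher there than in thymus replicate 3. Klrd1 and Klrk1, NK cell receptor genes on the iNKT1 list, were also highest in thymus. The NK cell and ILC1 list may therefore not tell those cells from iNKT1 cells. The part of NK cells and ILC1 in the Il7r difference was not tested.

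Il2rb, the beta chain shared by the IL-2 and IL-15 receptors, went the opposite way by a smaller amount. Its values were 38659, 36385 and 40797 in thymus, 51548, 34858 and 48835 in spleen, and 61549, 71229.7 and 67939.9 in liver. All 3 liver libraries were above all libraries of the other tissues, and spleen overlapped thymus. The mean of 66906 ± 4922 in liver was 1.73-fold that of thymus, 38614 ± 2206, and 1.48-fold that of spleen, 45080 ± 8956 (SD, n = 3 each).

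None of the Il2rb differences passed the threshold. The fitted log2 change was 0.79 from thymus to liver (SE 0.16, adjusted p = 0.0595, limma-trend) and 0.59 from spleen to liver (SE 0.16, adjusted p = 1.0, limma-trend, unadjusted p = 0.00277). Between spleen and thymus it was 0.20 (SE 0.16, adjusted p = 0.655, limma-trend). The liver-to-thymus difference passed in 2 of 23 alternatives, with libraries scaled to equal totals without mitochondrial genes (adjusted p = 0.0234, limma-trend) and with DESeq2 on recovered reads (adjusted p = 0.0496), over a range of 0.0234 to 0.431. The liver-to-spleen difference passed in 1 of 23, with weights per library (adjusted p = 0.0401, limma-trend), over a range of 0.0401 to 1.0.

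The ratio of Il2rb to Il7r within a library does not depend on the scaling of that library. It was 0.973, 0.726 and 1.47 in thymus, 3.32, 2.05 and 5.71 in spleen, and 14.9, 15.2 and 32.2 in liver. The tissues did not overlap in this ratio, whose mean went from 1.05 ± 0.377 in thymus through 3.69 ± 1.86 in spleen to 20.8 ± 9.90 in liver (SD, n = 3 each). In thymus the transcripts of the IL-7 and of the IL-2 and IL-15 chains gave similar read counts, while in liver those of Il2rb were at least 14.9 times those of Il7r in every library. The Pearson correlation of the log2 values of these genes over the 9 libraries was -0.895, given as a description because the libraries share their tissues.

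Among 8949 genes with a mean of at least 100, those most like Il7r over the 9 libraries, by the Pearson correlation of log2 values, were Il18rap (0.984), Hnrnph1 (0.968) and Il18r1 (0.968). Il18r1 and Il18rap encode the chains of the IL-18 receptor. Il18r1 had means of 22605 ± 7141 in thymus, 10810.3 ± 3943 in spleen and 3678 ± 2255 in liver, and Il18rap had 14400.0 ± 1204 in thymus, 10621 ± 1507 in spleen and 6091 ± 824 in liver (SD, n = 3 each), the order of tissues being that of Il7r for both. Most like Il2rb were Tmod3 (0.908), Rac2 (0.896) and Eif3l (0.881), where Rac2, a small GTPase of blood cells, had means of 13842 ± 3580 in thymus, 16719 ± 2064 in spleen and 28783 ± 2921 in liver. These are the highest of many correlations over the same libraries and are given as descriptions.

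**Figure D2:**
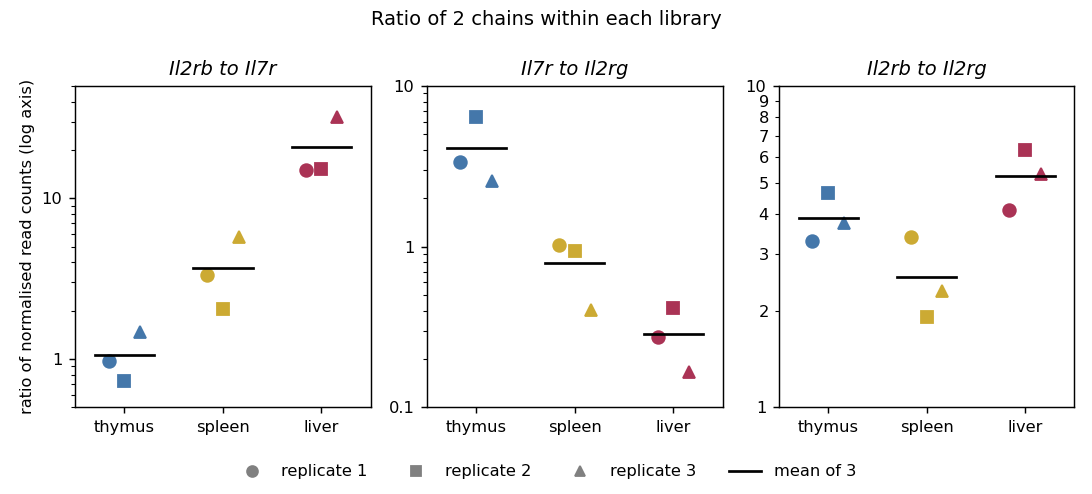
Ratio of the normalised read counts of a pair of receptor chains within each library (vertical log axes), by tissue, with 1 point per library and the bar at the mean of 3. The ratio of Il2rb to Il7r is at most 1.47 in thymus and at least 14.9 in liver, and the ratio of Il2rb to Il2rg stays between 1.92 and 6.34 in all libraries.

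Il2rg, the common gamma chain itself, was highest in spleen. Its values were 11753, 7814 and 10915 in thymus, 15165, 18201 and 21273 in spleen, and 15015, 11232.5 and 12719 in liver. All 3 spleen libraries exceeded all libraries of thymus and of liver, and liver overlapped thymus. The mean of 18213 ± 3054 in spleen was 1.79-fold that of thymus, 10161 ± 2075 (SD, n = 3 each), with a log2 change of 0.85 that did not pass the threshold (SE 0.23, adjusted p = 0.166, limma-trend). The log2 change from thymus to liver was 0.37 (SE 0.23) and that from spleen to liver -0.48 (SE 0.23). Gm20489, a gene on the same strand, shares exon sequence with Il2rg, so that the counting could split or drop reads of these genes.

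The ratios of Il7r and of Il2rb to the common chain were also computed. Il7r to Il2rg was 3.38, 6.41 and 2.55 in thymus, 1.03, 0.934 and 0.402 in spleen, and 0.275, 0.416 and 0.166 in liver. Thymus was separate from both other tissues, and spleen replicate 3 lay just below the highest liver library. Il2rb to Il2rg had means of 3.89 ± 0.697 in thymus, 2.54 ± 0.771 in spleen and 5.26 ± 1.12 in liver (SD, n = 3 each), where liver was above spleen in every library and thymus overlapped both.

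Il2ra, the alpha chain of the high-affinity IL-2 receptor and a marker of activated and regulatory T cells, was uneven in thymus. Its values were 16.8, 2249 and 6197 in thymus, 2964, 4866 and 6449 in spleen, and 4036, 6363 and 7460.2 in liver. Thymus replicate 1, with 15 reads of Il2ra in a library of 25024424 reads, lay far below the other 8 libraries, and the tissues overlapped in every pair. The fitted log2 changes of 3.20 in liver (SE 1.39, adjusted p = 0.396, limma-trend) and 2.85 in spleen (SE 1.39, adjusted p = 0.442, limma-trend) against thymus did not pass. Without thymus replicate 1 they were 0.63 and 0.28.

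Il15ra, the IL-15 alpha chain, had the lowest level of the 9 genes and the largest fitted difference. Its values were 19.1, 12.8 and 194 in thymus, 189, 931 and 1512 in spleen, and 411, 454 and 467 in liver. Thymus replicates 1 and 2 rested on 17 and 11 reads, all liver libraries were above all thymus libraries, and spleen replicate 1 lay just under thymus replicate 3. The means were 75.4 ± 103, 877 ± 663 and 444 ± 29.5 in thymus, spleen and liver (SD, n = 3 each). The log2 changes against thymus were 4.09 in spleen (SE 1.2, adjusted p = 0.195, limma-trend) and 3.56 in liver (SE 1.2, adjusted p = 0.275, limma-trend), and neither passed. The spleen difference passed without thymus replicate 3, at a log2 change of 5.28 (adjusted p = 0.0461, limma-trend), and with DESeq2 on recovered reads (adjusted p = 0.0183), the range over 23 alternatives being 0.0183 to 0.567.

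Il2ra and Il15ra are neighbours on chromosome 2, on the plus strand, 12096 bp apart with no other protein-coding gene between them. In mm10 they lie at chr2:11642807-11693193 and chr2:11705290-11734317. Their log2 values had a Pearson correlation of 0.677 over the 9 libraries, and thymus replicate 1 was among the lowest libraries for both. Il4ra and Il21r are likewise neighbours, 23954 bp apart on chromosome 7, at chr7:125552120-125579474 and chr7:125603429-125633570. Il7r and Il2rb share chromosome 15 at a distance of 68949079 bp, at chr15:9505788-9530176 and chr15:78479256-78495271 on the minus strand. Il2rg lies at chrX:101264378-101268255, Jak1 at chr4:101152367-101265282 and Jak3 at chr8:71676296-71690575.

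The genes most like Il2ra were Sec23b (0.993), Bloc1s1 (0.992) and Tysnd1 (0.990). All 3 had their lowest value in thymus replicate 1, at 114 for Sec23b, 2.26 for Bloc1s1 and 1.14 for Tysnd1. Most like Il15ra were Cbx8 (0.971), Ak6 (0.969) and Myo10 (0.966), each at or near 0 in thymus replicates 1 and 2. These likenesses follow the low values of the thymus libraries with the fewest genes detected, and the part of that in the Il2ra and Il15ra differences was not tested.

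Il4ra, a chain of the receptors for IL-4 and IL-13, had lower values in thymus than in liver. The values were 1469.7, 652 and 648 in thymus, 2109.8, 1192 and 1786 in spleen, and 1492, 2673 and 2307 in liver. Every liver library was above every thymus library, by the narrow gap between liver replicate 1 and thymus replicate 1, and spleen overlapped both. The liver mean of 2157 ± 605 was 2.34-fold that of thymus, 923 ± 473 (SD, n = 3 each), and the log2 change of 1.30 did not pass (SE 0.50, adjusted p = 0.321, limma-trend). In spleen the change against thymus was 0.95 (SE 0.50). The antisense gene Gm44876 overlaps exons of Il4ra, and without stated strand in the counting their reads cannot be told apart.

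Il21r, the IL-21 receptor, overlapped between all tissues. Its values were 1189, 6306 and 1527 in thymus, 1527, 3063 and 3539.8 in spleen, and 1642, 1442 and 1927 in liver. Thymus replicate 2 was the highest of all 9 libraries, above every liver library by a wide margin, while the other thymus libraries were within or below the range of liver. The log2 changes against thymus were -0.44 in liver (SE 0.56) and 0.18 in spleen (SE 0.56), with adjusted p-values of 0.793 and 0.935 (limma-trend). Without thymus replicate 2 these were 0.30 and 0.92, so that the direction in liver rested on that library.

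Neither kinase passed the threshold in any comparison, and Jak1 followed neither Il7r nor Il2rb. Jak1, the kinase of the cytokine-specific chains, had values of 25575, 15059 and 27571 in thymus, 15544, 18848 and 17413 in spleen, and 23658, 23131 and 19393 in liver. Its liver and thymus means, 22061 ± 2325 and 22735 ± 6722 (SD, n = 3 each), differed by less than the spread between libraries, and liver lay above spleen in every library. The log2 changes were -0.35 from thymus to spleen (SE 0.23, adjusted p = 0.565, limma-trend) and 0.35 from spleen to liver (SE 0.23, adjusted p = 1.0, limma-trend).

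Jak3, the kinase of the common gamma chain, was high in thymus replicates 1 and 2 alone. Its values were 5101, 5445 and 1420.2 in thymus, 2105, 1354 and 1711 in spleen, and 1448, 2329 and 2223 in liver. Thymus replicate 3 lay below all liver libraries and within the range of spleen. The log2 changes against thymus were -0.80 in liver (SE 0.50, adjusted p = 0.545, limma-trend) and -1.01 in spleen (SE 0.50, adjusted p = 0.448, limma-trend), and without thymus replicate 3 they were -1.43 and -1.64, also not past the threshold. Jak3 shares exon sequence with Insl3, and Jak1 a few bases with Raver2.

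Over the 9 members, the tissues did not overlap for 4 genes in liver against thymus (Il7r, Il15ra, Il4ra and Il2rb), for 2 in spleen against thymus (Il7r and Il2rg) and for 4 in liver against spleen (Il7r, Jak1, Il2rg and Il2rb). Of all genes tested, 15.3%, 15.3% and 12.7% did not overlap in these comparisons. The median log2 change of the members was 0.37, 0.20 and 0.21, beside medians over all genes of 0.29, 0.33 and -0.02. At an unadjusted p under 0.05 there were 5 members in liver against thymus, beside 11.6% of all genes.

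**Figure D3:**
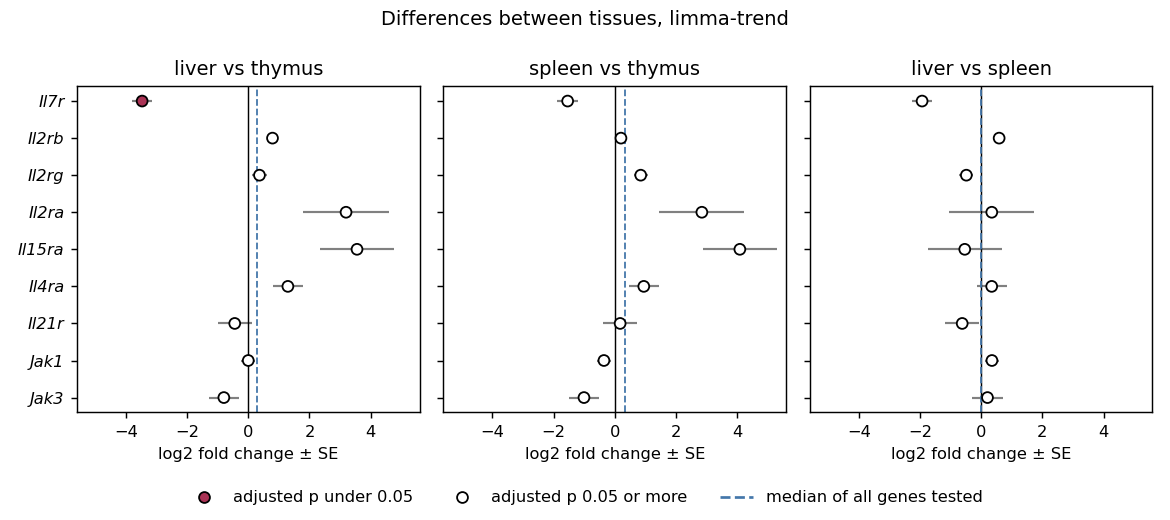
Log2 fold change of the 9 genes (horizontal axis, limma-trend, bars ± SE) in the 3 comparisons, with filled points for an adjusted p under 0.05 and a dashed line at the median of all genes tested. Only Il7r in liver against thymus, at -3.47, is filled, and the bars of Il2ra and Il15ra against thymus are the widest, with SE of 1.39 and 1.2.

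Divided by exon length, the values can be compared roughly between genes, here as normalised read counts per kilobase of exon. The length covers all annotated exons, whether or not these cells use them. Il2rg, which shares exon sequence with Gm20489, could also have lost reads. Il2rb was the highest member in each tissue, with means of 9007 in thymus, 10516 in spleen and 15607 in liver. Il7r was second in thymus at 8413, below Il2rg and above Jak1 in spleen at 2938, and below Il2rg, Jak1 and Il2ra in liver at 780. Il2rg had 4257, 7630.2 and 5442, and Jak1 had 3146, 2389 and 3053, in thymus, spleen and liver. Il21r, Jak3 and Il2ra had means between 322 and 1042 in all tissues. Il4ra, at 154 to 359, was eighth and Il15ra, at 17.0 to 197, ninth in each tissue.

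**Figure D4:**
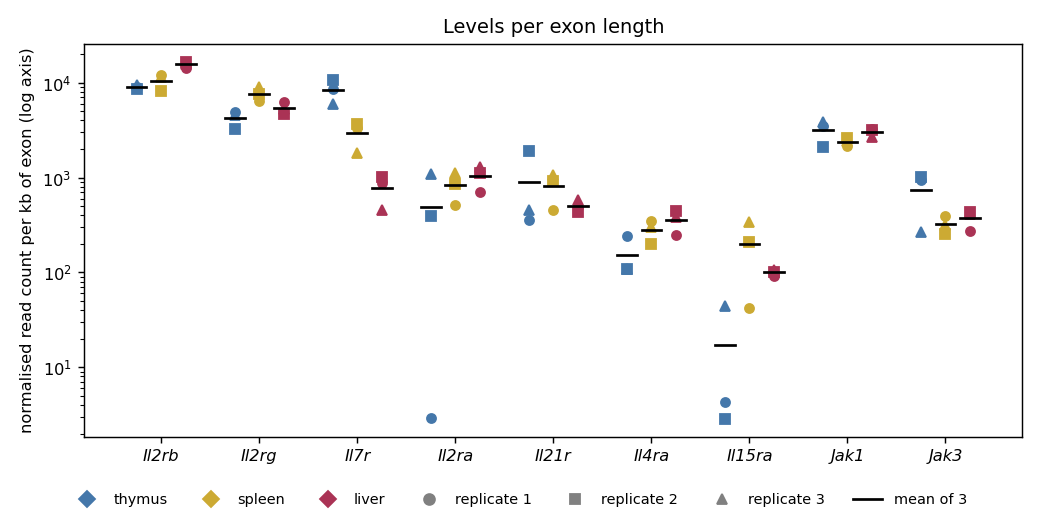
Normalised read count per kilobase of exon (vertical log axis) of each gene, with 1 point per library, colour for the tissue, shape for the replicate number and the bar at the mean of 3. Il7r drops from 8413 in thymus, next to Il2rb, to 780 in liver, while Il2rb, Il2rg and Jak1 stay within 2389 to 15607 as means.

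The wider pathway was taken from 7 lists of 91 genes, of which 84 were in the table and 83 were tested. In liver against thymus 0 of the 83 rose and 1 fell, in spleen against thymus 1 rose and 1 fell, and in liver against spleen 0 passed by limma-trend, beside 0.323%, 0.398% and 0.015% of all genes. At an unadjusted p under 0.05 the shares were 15.7%, 15.7% and 6.02%, beside 11.6%, 11.7% and 3.03% of all genes. The median log2 change of the 83 was 0.03, 0.07 and 0.01. With genes of at most 3 reads in every library of 1 tissue set to 3 reads there, it was -0.02, 0.05 and 0.02.

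Jak2, a Janus kinase that serves receptors outside the common gamma family, such as those of interferon gamma and of IL-12, was the gene that rose. Its values were 3893, 4466 and 4495 in thymus, 5850.4, 7570.4 and 7571 in liver, and 9420.4, 16739 and 14221 in spleen. No tissue overlapped another, with thymus lowest and spleen highest. Jak2 rose by 1.61 on the log2 scale from thymus to spleen (SE 0.27, adjusted p = 0.0151, limma-trend), in 19 of 23 alternatives over a range of 1.46e-05 to 0.296. Of all genes, 0.188% were called as higher in spleen than in thymus. The call was lost without spleen replicate 2 and without spleen replicate 3.

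Ptpn6, which encodes the phosphatase SHP-1, a negative regulator of cytokine and antigen receptor signalling, fell in both peripheral tissues. Its values were 16256, 12080.5 and 10409 in thymus, 4229, 3444 and 3829 in liver, and 3417, 1692 and 2319 in spleen. Thymus was above both other tissues in every library. Ptpn6 fell by 1.73 on the log2 scale in liver (SE 0.32, adjusted p = 0.0292, limma-trend) and by 2.42 in spleen (SE 0.32, adjusted p = 0.00331, limma-trend). The liver call was kept in 15 of 23 alternatives (range 9.53e-05 to 0.321) and in 3 of the 9 fits without 1 library, being lost without thymus replicate 1, thymus replicate 2, any liver replicate or spleen replicate 3. The spleen call was kept in 22 of 23 (range 4.61e-09 to 0.0568).

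Among the STAT factors and other kinases, no gene but Jak2 passed. Stat5a, a main effector of these receptors, had means of 768 ± 818 in thymus, 546 ± 234 in liver and 849 ± 203 in spleen. Stat5b, a close relative, had 1208 ± 727, 1034 ± 184 and 1177 ± 374 (SD, n = 3 each). Tyk2, another Janus kinase, had 2194 ± 1455, 1671 ± 404 and 2045 ± 446. The tissues overlapped in every pair for all 3 genes.

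Of 16 inhibitors, Ptpn6 was the only gene called. Cish, a STAT5-induced inhibitor of IL-2 receptor signalling, had means of 959 ± 375 in thymus, 2269.8 ± 941 in liver and 1788 ± 700.3 in spleen (SD, n = 3 each). The liver libraries of Cish were all above those of thymus, and the log2 change of 1.24 did not pass (SE 0.51, adjusted p = 0.37, limma-trend). Socs1, a feedback inhibitor of Janus kinases, was at 5.63 in thymus replicate 1 and at 79.8 to 402 in the other 8 libraries.

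Of 14 survival and growth genes and 16 regulators of the receptor genes, none was called in any comparison. Bcl2, the anti-apoptotic gene raised by IL-7 and IL-15 signalling in T cells, had means of 10354 ± 1196 in thymus, 12849 ± 3096 in liver and 6780.4 ± 751 in spleen (SD, n = 3 each). Every spleen library of Bcl2 was below every library of the other tissues, with a log2 change of -0.61 from thymus to spleen (SE 0.24, adjusted p = 0.335, limma-trend). Mcl1, a further anti-apoptotic gene, had 10049.8 ± 3948, 8588 ± 716 and 7390.0 ± 650.2 in thymus, liver and spleen. Foxo1, a transcription factor known to act on the Il7r gene, had means of 2269 ± 494 in thymus, 3629 ± 1260.2 in liver and 3713 ± 1209 in spleen (SD, n = 3 each), the lowest being in thymus. Tbx21, known to act on the Il2rb gene, had 3005 ± 2400 in thymus, 2729 ± 679 in liver and 3298 ± 490 in spleen, and its tissues overlapped in every pair.

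**Figure D5:**
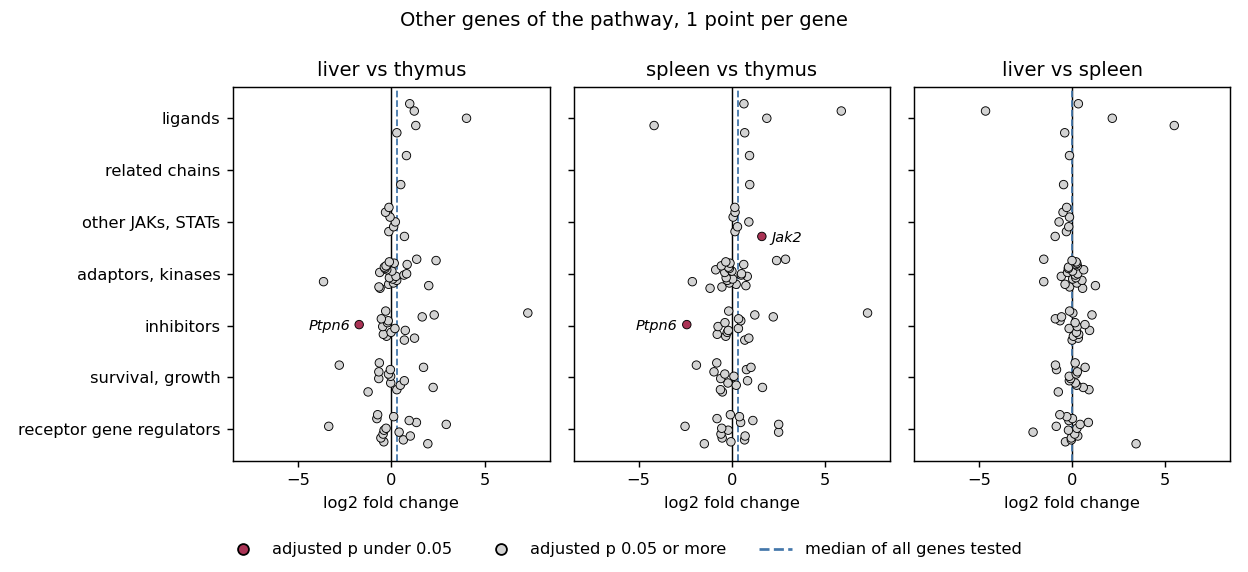
Log2 fold change of the 83 other pathway genes tested (horizontal axis, limma-trend) by list, with 1 point per gene, filled points for an adjusted p under 0.05 and a dashed line at the median of all genes tested. The filled points are Ptpn6, at -1.73 in liver and -2.42 in spleen against thymus, and Jak2, at 1.61 in spleen against thymus; the outermost grey points include genes with few reads in a tissue, whose fitted change depends on the pseudocount.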

How the data were processed

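RNA-seq values were analysed for 9 libraries of iNKT1 cells, 3 per tissue, grouped by the tissue in their labels. Per the labels' protocols, total RNA was made into ultralow-input libraries and sequenced for 76 cycles. The submitters' processing notes name Trimmomatic 0.33, TopHat2 2.1.0, HTSeq 0.6.1, edgeR and mm10, with no role or scaling. The values the authors deposited are a signal, normalised read counts that are not whole numbers. Low values of a library are spaced by a constant step, the worth of 1 read, and were turned into reads by it. Of 15737 such values, up to 20 reads each, 93.5% came within 0.1 of a whole read. Column names give tissue and replicate number, which assigned each column to a library, and 0 columns were left unused; the name of thymus replicate 2 holds a letter that is not explained. Symbols matched 13359 of 14004 gene identifiers. Positions and exon lengths came from GENCODE and the upstream stretch from RefSeq, both on mm10 (GRCm38.p6).

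The plan named a count test for counts and limma-trend for normalised values, and the latter was used. limma 3.58.1 in R 4.3.3 fitted log2(value + 1) of genes that reached a value of 1 in 3 or more libraries, with a term per tissue over all 9 libraries. The p-values are two-sided with Benjamini-Hochberg adjustment over 13309 genes and a threshold of 0.05. Alternatives were the pseudocount, the filter, the scaling, edgeR 4.0.16 and DESeq2 1.42.0 on recovered reads, the libraries entered, weights, a replicate block and a term for the libraries numbered 2. The fits and the recovery of reads were tested on simulated data.

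All members are named, with pathway genes past the threshold, 10 further pathway genes whatever their values, and the 3 most similar genes of 4 members. Other genes in the closing section were chosen after their values were seen. The members and the lists were chosen with earlier results of these data known, so no count over them is independent support. The value of 1 gene of a marker list is not reported here.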

Additional observations from a re-analysis of the deposited data

How the results depend on the processing

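Of the members' fold changes under the alternatives, 590 kept their direction and their side of the threshold, 15 newly passed it and 16 changed sign, none of which had passed. Il7r in liver against thymus passed in all 23. The count of members called in liver against thymus, 1, became 2 with equal totals without mitochondrial genes and 2 with DESeq2. In spleen against thymus, 0 became 1 with median-of-ratios scaling, 1 with the term for the libraries numbered 2, 2 with DESeq2, and 0 to 2 when 1 library was left out (2 without thymus replicate 3, 1 without liver replicate 3). In liver against spleen, 0 became 1 with DESeq2, 1 with the term for the libraries numbered 2 and 2 with library weights, and the F-test count of 1 became 2 with library weights. The cause was not tested.

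The labels do not say that equal numbers mark a shared mouse or batch. Residuals of same-numbered libraries correlated at -0.00073 to 0.0891, and those of differently numbered libraries at -0.0867 to 0.0484. Same-numbered pairs thus tended to be higher, though thymus replicate 2 was closer to spleen replicate 1 than to spleen replicate 2. The numbers were not taken as pairs because no label ties them, although the libraries numbered 2 share their lack of Y-linked reads. With the replicate block the members called were 1 in liver against thymus, 1 in spleen against thymus (Il7r, adjusted p = 0.0044, limma-trend), 1 in liver against spleen (Il7r, adjusted p = 0.0021, limma-trend) and 1 in the F-test.

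Signs changed in the libraries numbered 1 and 3 alone for Il4ra in liver against spleen (-0.065), Il21r in liver against thymus (0.40) and Jak3 in liver against spleen (-0.081). Il21r in spleen against thymus was -0.023 with median-of-ratios scaling, -0.12 with edgeR and -0.18 with DESeq2. Jak1 in liver against thymus was 0.15 with equal totals and 0.17 without mitochondrial genes. With 1 library left out, the ranges were -1.42 to 0.080 for Il15ra in liver against spleen, -0.90 to 0.30 and -0.28 to 0.92 for Il21r in liver and in spleen against thymus, and -0.27 to 0.16 for Jak1 in liver against thymus.

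Over the alternatives all genes called ranged from 8 to 465 in liver against thymus (43 in the main analysis), 9 to 515 in spleen against thymus (53), 0 to 22 in liver against spleen (2) and 15 to 363 in the F-test (46). In liver against thymus, 27 genes were higher and 16 lower, 21 and 19 with median-of-ratios scaling, and 34 and 14 with equal totals without mitochondrial genes. In spleen against thymus, 25 were higher and 28 lower, 22 and 16 with equal totals, and 25 and 49 with median-of-ratios scaling. Other scalings of the same values moved the median log2 change of all genes in liver against thymus from 0.29 to between 0.13 and 0.45, and in spleen against thymus from 0.33 to between 0.14 and 0.48. With edgeR and DESeq2, which also change the model, it was -0.02 and -0.04 in liver and 0.03 and -0.02 in spleen. Relative to that median Il7r stayed lower. The low Il15ra and Il2ra values of single thymus libraries rest on 11 to 17 reads, which limits their precision.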

Other observations

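Transcripts of some cytokines of the family were detected in these cells. Il4, a cytokine that iNKT cells are known to make, had normalised read counts of 461 ± 135 in thymus, 899.5 ± 180.2 in liver and 734 ± 272 in spleen (SD, n = 3 each), with all liver libraries above all thymus libraries and no call by limma-trend (log2 change 0.98, adjusted p = 0.545). Il21 was at 131, 24.1 and 148 in spleen and at 0, 0 and 30.0 in liver, so that these tissues overlapped. It had no more than 3 reads in every thymus library. The log2 change of Il21 from thymus to spleen, 5.88, did not pass (adjusted p = 0.211, limma-trend). Il15 was at 33.7, 440.2 and 0.0440 in thymus, 507.5 or less in liver and no more than 3 reads in every spleen library, so that its level differed more within thymus and liver than between them.

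The feedback inhibitors Socs2 and Socs3, induced by STAT factors in many cells, were higher in the peripheral tissues without passing the threshold. Socs2 was at 405, 932 and 836 in thymus, 4071, 3338 and 2774.5 in liver and 2200.0, 1026 and 1831 in spleen, with a log2 change of 2.30 from thymus to liver (SE 0.49, adjusted p = 0.063, limma-trend). It passed in 5 of 23 alternatives, among them the fits without thymus replicate 2 and without thymus replicate 3. Socs3 was at no more than 5.07 in the thymus libraries, at 197 to 569 in liver and at 219 to 406 in spleen, with adjusted p-values of 0.063 and 0.0584 (limma-trend). Both differences of Socs3 from thymus passed in 2 of 23 alternatives, with DESeq2 on recovered reads and without thymus replicate 3, over ranges of 3.10e-07 to 0.539 in liver and 4.73e-07 to 0.468 in spleen.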
